A study of Mus musculus with 12 samples.

Results

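The interferon regulatory factors are a family of transcription factors that carry interferon and pattern-recognition signals to genes of host defence. The 8 genes described here, Irf1, Irf2, Irf3, Irf4, Irf5, Irf7, Irf8 and Irf9, were found by matching the Ensembl gene identifiers of the deposited count table to their symbols. They are 8 of 56980 identifiers in the table and 8 of the 15110 genes with enough counts to be tested.

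RNA sequencing was carried out on mouse bone marrow-derived macrophages, which are bone marrow cells grown into macrophages, here for 7 days in medium conditioned by L929 cells. The study asked what Regnase-3, the RNA-binding endonuclease encoded by Zc3h12c, does in the polarization of macrophages that express Rank. The 12 libraries form 4 groups of 3. Wildtype M0 libraries and RankCre-Regnaes3cKO M0 libraries, spelled as in the labels, came from unstimulated cells. Wildtype M1 libraries and RankCre-Regnaes3cKO M1 libraries came from cells given LPS at 100 ng/ml with interferon-gamma at 10 ng/ml, a mixture that drives inflammatory activation. The labels give this treatment as present or absent without tying it to a state, and M1 was taken as the treated state from its name. In RankCre-Regnaes3cKO cells, called cKO below, the Cre recombinase is named for Rank, so the deletion is limited to cells in which that driver has been active. The control groups are labelled wildtype, and no group with the Cre alone is described. The labels give no age, sex or strain, no duration of stimulation, and no statement that the replicates came from separate mice or cultures. The p-values below therefore measure the spread between these libraries, which may be technical.

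Interferon regulatory factors share a DNA-binding domain that reads GAAA-containing elements. IRF3 and IRF7 lie inactive in the cytoplasm until TBK1 or IKK-epsilon phosphorylates them and then switch on type I interferons, IRF9 is the DNA-binding part of the complex that answers those interferons, and IRF1 is induced by interferon-gamma. In macrophages IRF5 and IRF8 drive inflammatory cytokine genes, IRF4 is tied to alternative activation, and IRF2 competes with IRF1 for the same elements.

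Each library held between 41721452 and 42197986 counts. The 8 macrophage markers (Adgre1, Cd68, Csf1r, Itgam, Mertk, Fcgr1, Lyz2, Cd14) summed to between 14199 and 18838 CPM (read counts divided by library size, with library sizes corrected by TMM factors) in the 12 libraries, and none was at 0 in any of them. Zc3h12c, the targeted gene, had 878, 819 and 794 counts in wildtype M0 and 703, 944 and 751 in cKO M0. It had 6020, 6392 and 5424 counts in wildtype M1 and 3463, 3652 and 4484 in cKO M1. The whole-gene level in cKO was thus 62.4% of wildtype in M1 (log2 difference -0.68, SE 0.12, adjusted p = 0.00101) and -0.07 on the log2 scale in M0 (adjusted p = 0.8095), so the M0 counts do not by themselves separate the genotypes. Whole-gene counts do not show which exons the reads came from.

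The bases just before 1 transcription start of each of Irf1, Irf2 and Irf8 are shown first, because these 3 members hold interferon-type motifs there. Irf5, Irf7 and Irf9, whose windows hold none of the motifs searched, were called higher on stimulation as Irf1, Irf2 and Irf8 were (Irf2 in wildtype and Irf9 not with library totals alone as the scaling), where 34.2% of all tested genes were called higher in each genotype. All sequences are from RefSeq on GRCm38.p6, are written 5′ to 3′ on the plus strand, which is the strand of each of these genes, and carry the motif matches in capitals. The chromosome coordinates given are those of each printed stretch, which runs up to 20 bases beyond its motif matches on either side. Irf1 holds a gamma-activated sequence (the STAT dimer motif TTCNNNGAA) from 90 to 82 bases before its start, at chr11:53769904-53769952, and an NF-kB motif from 13 to 4 bases before it, at chr11:53769981-53770013. Irf2 holds an interferon-stimulated response element core (GAAA, any 2 bases, GAAA) from 241 to 232 bases before its start and a gamma-activated sequence from 224 to 216, at chr8:46739495-46739549. Its element core overlaps an ETS-IRF composite motif (GGAA, any 2 bases, GAAA) from 247 to 238. Irf8 holds gamma-activated sequences from 171 to 163 and from 153 to 145 bases before its start, at chr8:120736167-120736233.
Irf1, gamma-activated sequence: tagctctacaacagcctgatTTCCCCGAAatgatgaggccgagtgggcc
Irf1, NF-kB motif: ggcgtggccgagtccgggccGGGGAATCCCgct
Irf2, composite motif, response element core and gamma-activated sequence: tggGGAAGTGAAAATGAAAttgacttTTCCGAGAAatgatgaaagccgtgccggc
Irf8, gamma-activated sequences: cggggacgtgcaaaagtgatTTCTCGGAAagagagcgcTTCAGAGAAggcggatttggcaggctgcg

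The search covered both strands of the 250 bases before each start, in 11 windows for the 8 members. In the same length of sequence a gamma-activated sequence was present in 7.02% of 32851 RefSeq windows, the response element core in 2.98%, the ETS-IRF composite in 2.3% and the NF-kB motif in 7.25%. Irf2 also held an NF-kB motif from 17 to 8 bases before its start. Irf1 and Irf8 each have a second window, before another start, and that window held none of these motifs. None of these letters was present in the windows of Irf3, Irf4, Irf5, Irf7 and Irf9, which says nothing about other stretches or about binding.

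**Figure D1:**
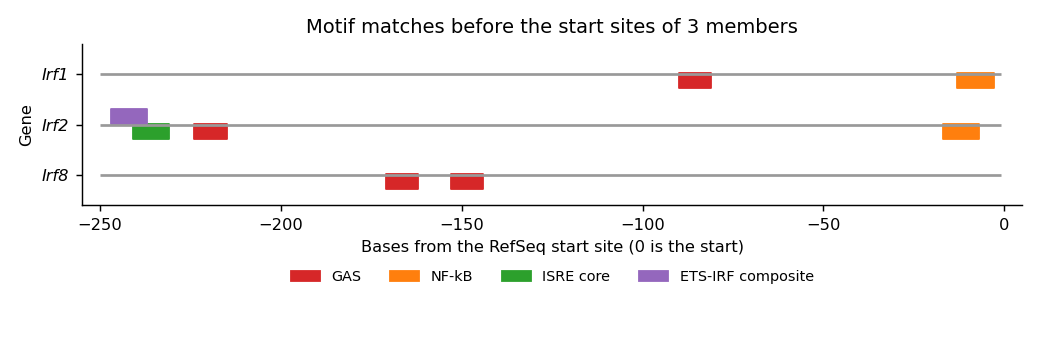
Motif matches in the 250 bases before 1 transcription start of each of Irf1, Irf2 and Irf8, one line per gene, with the distance from the start in bases on the x axis, one colour per motif (GAS is the gamma-activated sequence, ISRE the interferon-stimulated response element) and the composite motif drawn above the line. Gamma-activated sequences lie from 90 to 82 bases before the start of Irf1, from 224 to 216 in Irf2, and from 171 to 163 and from 153 to 145 in Irf8.

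Levels were compared between members after division by the gene length in the table (CPM per kilobase). In wildtype M0, Irf5 (68.5 ± 2.48, SD, n = 3) and Irf7 (64.2 ± 8.53) stood highest, and their libraries overlapped. Irf8 followed at 26.2 CPM per kilobase, then Irf9 at 15.8, Irf1 at 14.1, Irf3 at 11.1, Irf2 at 8.61 and Irf4 at 1.74. In cKO M0 the order was close to this, with Irf7 at 85.8 ± 31.1 and Irf5 at 67.6 CPM per kilobase overlapping at the top. The ranges of Irf3 (10.5) and Irf2 (8.62) overlapped near the bottom, though Irf3 was above Irf2 within each cKO M0 library. In wildtype M1, Irf7 reached 960.4 ± 53.5 CPM per kilobase, Irf1 231 and Irf5 192. The ranges of Irf1 and Irf5 overlapped, though Irf1 was above Irf5 within each wildtype M1 library. Irf8 stood at 95.3, Irf9 at 26.3, Irf2 at 12.5, Irf3 at 7.5 and Irf4 at 0.0763 in those libraries. In cKO M1 the order was again Irf7 (855 ± 128), Irf1 (269), Irf5 (189), Irf8 (111), Irf9 (23.6), Irf2 (18.1), Irf3 (10.7) and Irf4 (0.0693). The family's composition therefore changed between states: Irf7 made up 30.5% ± 2.87 of the 8 members' summed CPM per kilobase in wildtype M0 and 63.0% ± 1.82 in wildtype M1, while Irf5 went from 32.6% to 12.6%. In cKO the share of Irf7 was 36.9% ± 7.72 in M0 and 57.7% ± 2.25 in M1. These shares are descriptions and were not tested.

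**Figure D2:**
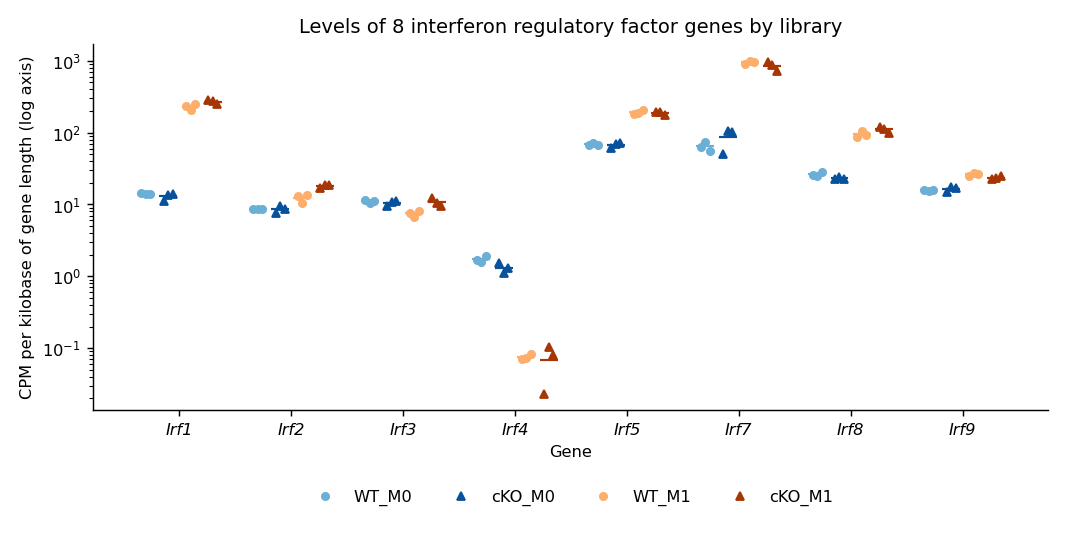
CPM per kilobase of gene length on a log axis for the 8 members along the x axis, with one point per library, a bar at each group's mean, circles for wildtype (WT) and triangles for cKO. Mean Irf7 is 64.2 and 85.8 in wildtype and cKO M0 and 960.4 and 855 in wildtype and cKO M1, while mean Irf4 is 1.74 and 1.32 in M0 and 0.0763 and 0.0693 in M1.

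On stimulation of wildtype cells, Irf1, Irf2, Irf5, Irf7, Irf8 and Irf9 rose and Irf3 and Irf4 fell, so that 6 of 8 members were called higher and 2 lower at an adjusted p under 0.05, where 71.4% of all tested genes were called, 34.2% higher and 37.1% lower. With library totals alone as the scaling, 4 members were higher, since Irf2 was then at -0.04 on the log2 scale (adjusted p = 0.717) and Irf9 at 0.14 (adjusted p = 0.0802). In cKO the same 6 members were called higher and 1, Irf4, was called lower, where 70.2% of tested genes were called, 34.2% higher and 36% lower, while with library totals alone Irf9 turned to -0.03 (adjusted p = 0.754) and Irf3 was lower at -0.51 (adjusted p = 0.000524). In wildtype the M1 libraries lay above all M0 libraries for 6 members and below them for 2 (36% and 39.6% of tested genes), and in cKO above for 6 and below for 1 (35% and 37.6%). The members' median log2 difference was 1.11 in wildtype and 1.27 in cKO, against -0.07 and -0.04 over all tested genes. Moving from TMM factors to library totals shifted the median of all genes from -0.07 to -0.65 in wildtype and from -0.04 to -0.58 in cKO. The calls of Irf2 in wildtype, Irf3 in cKO and Irf9 in both genotypes therefore depend on the scaling. The larger responses (Irf1, Irf4, Irf5, Irf7, Irf8) kept their direction and call under it, though not their size. So did Irf2 in cKO and Irf3 in wildtype. These are bulk samples, in which fewer cells of a type and less RNA per cell cannot be told apart.

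Irf1, the interferon-gamma-induced activator, had 57.5, 55.5 and 55.7 CPM in wildtype M0 and 938, 812 and 1007 CPM in wildtype M1. In cKO it had 45.1, 54.2 and 56.2 CPM in M0 and 1136, 1095 and 982 CPM in M1. The M0 and M1 libraries were far apart in both genotypes, and the genotypes overlapped within each state. The response was 16.4-fold in wildtype (log2 difference 4.03, SE 0.11, adjusted p = 6.04e-14) and 20.7-fold in cKO (4.37, adjusted p = 2.62e-14). The cKO difference was -0.12 in M0 (95% interval -0.33 to 0.10, adjusted p = 0.554) and 0.22 in M1 (0.01 to 0.43, adjusted p = 0.132).

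Irf2, the antagonist that shares the binding sites of Irf1, had 63.1, 64.3 and 63.7 CPM in wildtype M0 and 55.9, 70.9 and 64.5 CPM in cKO M0. It had 97.7, 78.1 and 102 CPM in wildtype M1 and 124, 139 and 138 CPM in cKO M1. All 3 cKO M1 libraries lay above all 3 wildtype M1 libraries, as in 17.4% of all tested genes, while the M0 libraries of the genotypes overlapped. Irf2 was 1.44-fold higher in cKO in M1 (log2 difference 0.53, SE 0.10, 95% interval 0.31 to 0.75, adjusted p = 0.00261) and differed by 0.00 in M0 (adjusted p = 0.998). Its response to stimulation was 0.54 in wildtype (SE 0.10, adjusted p = 0.000250) and 1.07 in cKO, or 2.09-fold (adjusted p = 1.90e-07), and the wildtype response alone was lost with library totals (-0.04). The interaction term, which is the M1 genotype difference minus the M0 one, was 0.53 (SE 0.15, adjusted p = 0.0387). That call did not hold when certain single libraries were left out, namely wildtype M0 replicate 4, 5 or 6, cKO M0 replicate 1 or 3, wildtype M1 replicate 11, or cKO M1 replicate 8 or 9 (adjusted p up to 0.101), whereas the M1 difference held without any one library (log2 difference 0.41 to 0.59, adjusted p 0.00165 to 0.0180).

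Irf3, the TBK1 substrate that starts type I interferon production, had 40.1, 36.0 and 38.3 CPM in wildtype M0 and 32.9, 37.0 and 39.0 CPM in cKO M0. It had 26.3, 22.7 and 28.4 CPM in wildtype M1 and 42.0, 35.9 and 33.1 CPM in cKO M1. The wildtype M1 libraries were below every other library, and the cKO M1 libraries lay in the range of, or above, the M0 libraries. Irf3 was 1.43-fold higher in cKO in M1 (log2 difference 0.52, SE 0.11, 95% interval 0.29 to 0.75, adjusted p = 0.00390) and differed by -0.07 in M0 (adjusted p = 0.762). Wildtype M1 held 67.8% of the wildtype M0 level (-0.56, SE 0.11, adjusted p = 0.000227). The cKO response was 0.03 (95% interval -0.20 to 0.25, adjusted p = 0.834), and -0.51 with library totals. The interaction term was 0.59 (SE 0.15, adjusted p = 0.0277) and missed the threshold without wildtype M0 replicate 4 or 6, cKO M0 replicate 1, wildtype M1 replicate 11 or cKO M1 replicate 8 (adjusted p up to 0.0731). The M1 difference held without any one library (0.41 to 0.58, adjusted p 0.00223 to 0.0260).

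Bcl2l12 lies next to Irf3 on the opposite strand, and in the GRCm38 gene models 88 exon bases of Irf3 (2.56%) are shared with it. Whether the counting used strand was not stated, so reads from the shared bases cannot be assigned to one gene. Bcl2l12 averaged 4.29 CPM in wildtype M0, 4.87 in cKO M0, 2.05 in wildtype M1 and 3.26 in cKO M1. It too was higher in cKO in M1, by 0.66 on the log2 scale (adjusted p = 0.0226), and its part in the Irf3 difference was not tested.

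Irf7, the amplifier of type I interferon induction, had 239, 276 and 212 CPM in wildtype M0 and 189, 403 and 380.3 CPM in cKO M0. It had 3404, 3798 and 3678 CPM in wildtype M1 and 3675, 3293 and 2713 CPM in cKO M1. In M0 cKO replicate 1 was below every wildtype library and cKO replicates 2 and 3 were above every one, while in M1 the genotypes overlapped. The response was 15-fold in wildtype (log2 difference 3.90, SE 0.23, adjusted p = 3.66e-10) and 9.96-fold in cKO (3.32, adjusted p = 2.00e-09). The cKO difference in M0 was 0.42 (SE 0.20, 95% interval -0.02 to 0.85, adjusted p = 0.286). Without cKO M0 replicate 1 it was 0.69 (adjusted p = 0.0102), and with all libraries but no low-count filter 0.43 (adjusted p = 0.000176), so that the call depends on that library and on the filter. The other 17 of 19 alternatives did not call the M0 difference. Its lowest value among the alternatives was 0.24 and the highest adjusted p was 0.671. In M1 the difference was -0.17 (95% interval -0.60 to 0.27, adjusted p = 0.613). The interaction term was -0.59 (SE 0.29, adjusted p = 0.231), -0.86 without cKO M0 replicate 1 (adjusted p = 0.00956) and -0.61 without the low-count filter (adjusted p = 5.99e-05). The other 16 of 18 alternatives did not call this term, with values up to -0.40 and adjusted p up to 0.431.

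The same 3 cKO M0 libraries were spread in the same way over the reported targets of IRF3, IRF7 and IRF9, which are antiviral genes such as Ifit1, Isg15, Mx1 and Rsad2. The list was not chosen independently of earlier results on these data. In 16 of its 16 genes cKO M0 replicate 1 was below replicates 2 and 3, as it was in 37.6% of all tested genes. Replicate 1 was below all wildtype M0 libraries in 12 of the 16 genes (32.5% of all tested genes), and replicates 2 and 3 were above all of them in 12 (20.8%). Relative to the wildtype M0 mean on the log2 scale, Irf7 was at -0.36, 0.73 and 0.65 in cKO M0 replicates 1, 2 and 3, and Isg15, a ubiquitin-like modifier, was at -0.33, 0.76 and 0.67. edgeR, DESeq2 and limma-voom each called 0 of the 16 in M0 (1 higher at an unadjusted p under 0.05), and their median log2 difference was 0.26 against 0.01 over all tested genes. Without cKO M0 replicate 1 the median was 0.51 and 1 gene was called higher.

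**Figure D3:**
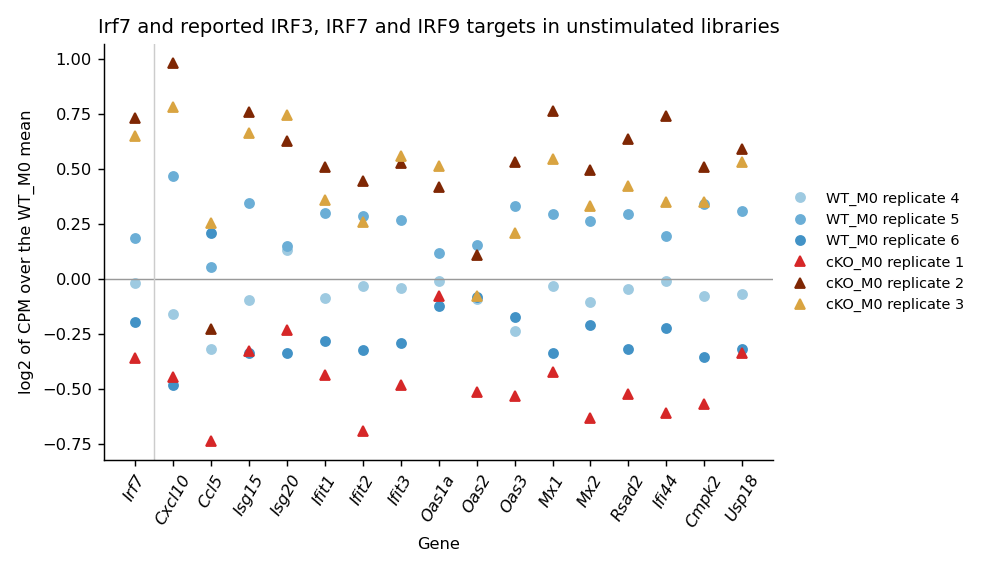
Log2 of CPM over the wildtype M0 mean on the y axis for Irf7, at the left of the dividing line, and the 16 reported targets of IRF3, IRF7 and IRF9, with one point per gene for each of the 6 M0 libraries (circles wildtype, triangles cKO). In cKO M0 replicate 1 Irf7 is at -0.36, and in replicates 2 and 3 it is at 0.73 and 0.65.

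Irf9, the DNA-binding subunit of the interferon-stimulated complex, had 85.8, 84.0 and 86.3 CPM in wildtype M0 and 81.4, 94.3 and 91.9 CPM in cKO M0. It had 134, 148 and 143 CPM in wildtype M1 and 122, 127 and 133 CPM in cKO M1. The cKO M1 libraries lay just below the wildtype M1 libraries without overlap, which 16.3% of all tested genes also did. The cKO difference was 0.06 in M0 (adjusted p = 0.691) and -0.16 in M1 (95% interval -0.32 to 0.01, adjusted p = 0.168). The response was 1.66-fold in wildtype (log2 difference 0.73, adjusted p = 3.69e-07) and 1.42-fold in cKO (0.51, adjusted p = 2.02e-05), and was 0.14 and -0.03 with library totals. Rnf31, on the same strand, shares 123 exon bases (2.28%) with Irf9 in the GRCm38 models. It averaged 46.7 CPM in wildtype M0, 43.5 in cKO M0, 121 in wildtype M1 and 121 in cKO M1, with a response of 1.38 on the log2 scale in wildtype and 1.48 in cKO, and its part in the Irf9 response was not tested.

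Irf5, which drives inflammatory cytokine genes, had 193, 207 and 197 CPM in wildtype M0 and 177, 205 and 207 CPM in cKO M0. It had 527, 541 and 604 CPM in wildtype M1 and 557, 572 and 515 CPM in cKO M1. The genotypes overlapped in both states. Its responses were nearly equal at 2.8-fold in wildtype (log2 difference 1.49, adjusted p = 2.77e-10) and 2.79-fold in cKO (1.48, adjusted p = 3.04e-10). The cKO difference was -0.02 in M0 (adjusted p = 0.938) and -0.02 in M1 (95% interval -0.20 to 0.15, adjusted p = 0.878). Tnpo3, on the opposite strand, shares 411 exon bases (14.1%) with Irf5 in the GRCm38 models and averaged between 58.2 and 71.1 CPM in the 4 groups.

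Irf8, a lineage factor of macrophages and dendritic cells, had 183, 175 and 197 CPM in wildtype M0 and 158, 172 and 157 CPM in cKO M0. It had 611, 743 and 663 CPM in wildtype M1 and 852, 802 and 704 CPM in cKO M1. In M0 the cKO libraries lay below the wildtype libraries without overlap, as 12.9% of all tested genes did, and in M1 the genotypes overlapped. The cKO difference was -0.19 in M0 (SE 0.09, 95% interval -0.38 to 0.01, adjusted p = 0.293) and 0.23 in M1 (0.03 to 0.42, adjusted p = 0.103). The M1 value passed with library totals (0.28, adjusted p = 0.0326) and without cKO M1 replicate 9 (0.29, adjusted p = 0.0396). In the other 17 of 19 alternatives it was not called, with values down to 0.15 and adjusted p up to 0.327. The response was 3.63-fold in wildtype (1.86, adjusted p = 7.18e-11) and 4.84-fold in cKO (2.27, adjusted p = 7.60e-12), and the interaction term of 0.41 (SE 0.13) missed the threshold (adjusted p = 0.0653). That term passed with DESeq2 (0.40, adjusted p = 0.0328), with library totals (0.46, adjusted p = 0.0320) and without a low-count filter (0.38, adjusted p = 0.0475). It also passed without wildtype M1 replicate 11 (0.48, adjusted p = 0.0420) or cKO M1 replicate 9 (0.48, adjusted p = 0.0273). In the other 13 of 18 alternatives the term was not called, with values down to 0.35 and adjusted p up to 0.174.

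Irf4, tied to alternative activation, had 8.21, 7.87 and 9.50 CPM in wildtype M0 and 7.55, 5.44 and 6.37 CPM in cKO M0. In M1 it fell to 12, 12 and 14 counts in wildtype and 4, 18 and 14 counts in cKO, from between 277 and 483 counts in the M0 libraries. The cKO M0 libraries lay below the wildtype M0 libraries without overlap, as 12.9% of all tested genes did. The fall on stimulation was 22.6-fold in wildtype (log2 difference -4.50, SE 0.27, adjusted p = 5.59e-10) and 18.8-fold in cKO (-4.23, adjusted p = 1.50e-09). The cKO difference was -0.40 in M0 (SE 0.19, 95% interval -0.81 to 0.01, adjusted p = 0.278) and -0.14 in M1 (-0.99 to 0.72, adjusted p = 0.855), where the low counts leave a wide interval.

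IRF4 and IRF8 are also expressed by B cells and dendritic cells, so markers of those cells are given beside them. The 9 B and plasma cell markers summed to between 53.7 and 70.6 CPM in wildtype M0, 32.9 and 62.4 in cKO M0, 3.16 and 5.23 in wildtype M1, and 0.454 and 0.794 in cKO M1. Pax5, the transcription factor that maintains B cell identity, had between 0 and 4 counts in every library. Most of the M0 sum was Ighm, at between 46.3 and 57.0 CPM in wildtype and 30.9 and 48.3 in cKO. The 7 dendritic cell markers summed to between 0.819 and 1.02 CPM in wildtype M0, 0.628 and 1.30 in cKO M0, 4.09 and 4.57 in wildtype M1, and 3.34 and 4.60 in cKO M1. The part of either marker list in the Irf4 and Irf8 values was not tested.

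Between genotypes, edgeR called 0 of 8 members higher and 0 lower in M0, where 1.61% of tested genes were called, 0.662% higher and 0.953% lower. DESeq2 and limma-voom also called 0 members there, and 0 had an unadjusted p under 0.05, but edgeR without the low-count filter called 1 higher (Irf7). In M1, 2 members (Irf2 and Irf3) were called higher and 0 lower, where 18.6% of tested genes were called, 8.98% higher and 9.67% lower. At an unadjusted p under 0.05 there were 4 higher (Irf1 and Irf8 besides) and 0 lower in M1, and DESeq2 and limma-voom each called the 2 and 0 lower. The interaction term was called for 2 members, both higher, and for 0 lower, where 8.16% of tested genes were called, 4.02% higher and 4.14% lower, with 4 higher and 0 lower at an unadjusted p under 0.05. For this term DESeq2 called 3 higher and 0 lower, and limma-voom 2 and 0, while edgeR without the low-count filter called 1 lower (Irf7). The members' median cKO difference was -0.04 in M0 and 0.10 in M1, against 0.01 and 0.02 over all tested genes. The stimulation and genotype comparisons share libraries, so their values for a member are not independent of each other.

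**Figure D4:**
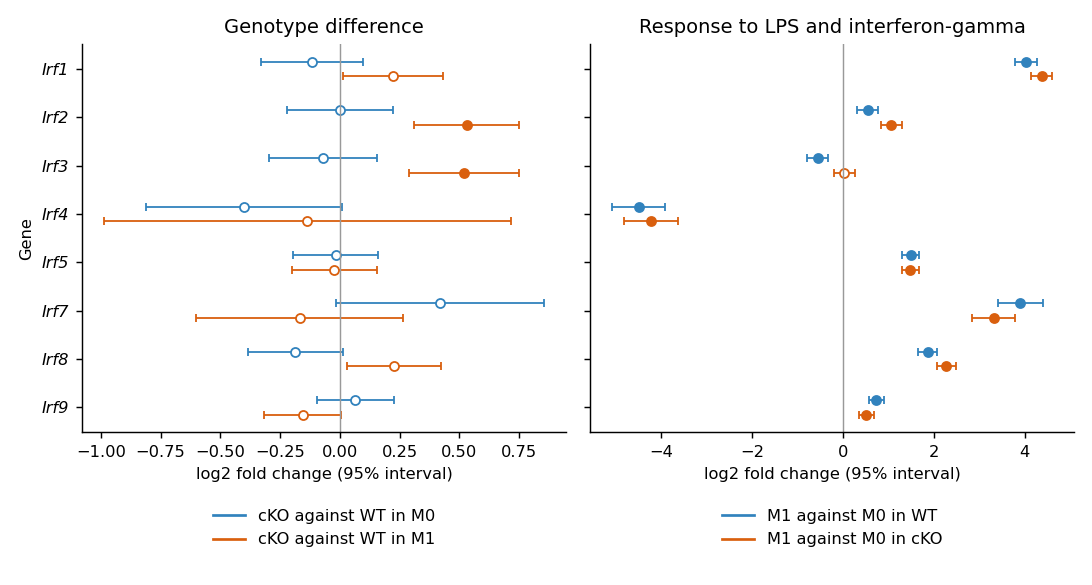
Log2 differences of the 8 members with 95% intervals, for the genotype comparison in each state and the stimulation comparison in each genotype, with filled points where the adjusted p is under 0.05. Irf2 and Irf3 are called higher in cKO in M1, at 0.53 and 0.52, and with library totals alone as the scaling the stimulation values of Irf2 in wildtype and of Irf3 and Irf9 in cKO change sign, to -0.04, -0.51 and -0.03.

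Ratios of 2 members within a library do not depend on the scaling between libraries, and 4 were chosen after the values were seen. The log2 ratio of Irf1 to Irf2 counts per kilobase, activator to antagonist, was 0.68 to 0.76 in wildtype M0 and 0.51 to 0.70 in cKO M0. It was 4.16 to 4.27 in wildtype M1 and 3.72 to 4.10 in cKO M1, with no overlap between the genotypes in M1. The ratio of Irf7 to Irf3 was 2.33 to 2.80 in wildtype M0, 2.39 to 3.31 in cKO M0, 6.88 to 7.25 in wildtype M1 and 6.23 to 6.39 in cKO M1, again without overlap in M1. Irf2 and Irf3 were themselves called higher in cKO in M1, so the lack of overlap in these ratios is not a separate result. How often ratios of other gene pairs separate the genotypes was not computed. The ratio of Irf8 to Irf5 was -1.53 to -1.28 in wildtype M0, -1.68 to -1.44 in cKO M0, -1.15 to -0.82 in wildtype M1 and -0.83 to -0.67 in cKO M1, and the genotypes overlapped in both states. The ratio of Irf5 to Irf4 was 5.13 to 5.47 in wildtype M0 and 5.31 to 5.99 in cKO M0, and was 11.3 in each wildtype M1 library and 10.9 to 13.0 in cKO M1, where Irf4 had few counts. A further ratio that was computed, Irf8 to Irf4, was 3.85 to 3.96 in wildtype M0 and 3.86 to 4.46 in cKO M0. In M1 that ratio was 10.1 to 10.5 in wildtype and 10.1 to 12.3 in cKO.

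**Figure D5:**
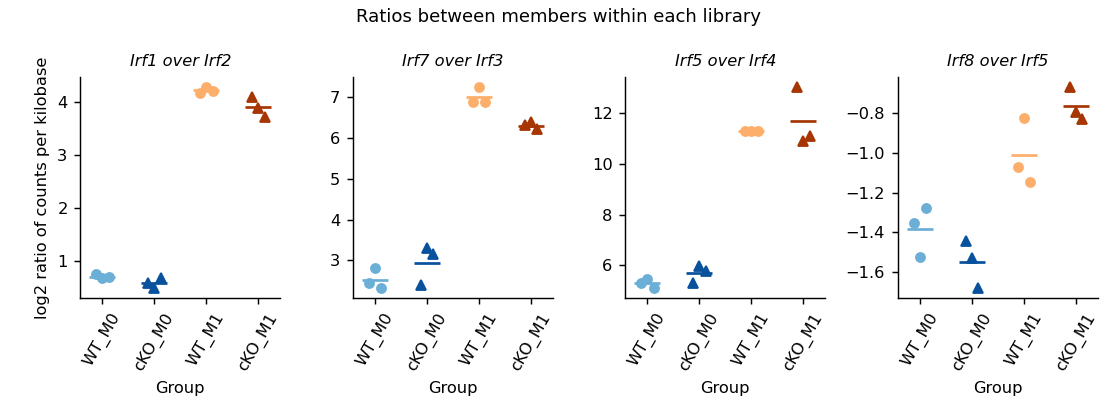
Log2 ratio of the counts per kilobase of 2 members within each library on the y axis, for 4 pairs in 4 panels, with one point per library in the 4 groups and a bar at each group's mean. For Irf1 to Irf2 the M1 libraries lie between 4.16 and 4.27 in wildtype and between 3.72 and 4.10 in cKO, and for Irf7 to Irf3 between 6.88 and 7.25 and between 6.23 and 6.39.

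Genes around the family were read from 7 lists with 105 entries, which hold 96 tested genes. In cKO against wildtype 1 of the 96 was called higher and 3 lower in M0 (0.662% and 0.953% of all tested genes), and 16 higher and 11 lower in M1 (8.98% and 9.67%). On stimulation 71 were higher and 13 lower in wildtype (34.2% and 37.1% of all tested genes), and 78 and 8 in cKO (34.2% and 36%). Of the 21 receptors, adaptors and kinases that activate these factors, 0 were called in M0 by edgeR (1 higher and 3 lower at an unadjusted p under 0.05, and 2 lower by DESeq2 and 0 by limma-voom), and in M1 cKO had 4 higher and 2 lower. Those called included Myd88, the adaptor upstream of IRF5 and IRF7, at 133 ± 21.2 CPM in wildtype M1 and 200.4 ± 13.0 in cKO M1 (log2 difference 0.59, adjusted p = 0.00151). Ikbke, the kinase IKK-epsilon, was at 292 ± 11.6 and 386 ± 23.3 CPM (0.41, adjusted p = 0.00578). Sting1, the adaptor of cytosolic DNA sensing, was higher by 0.43 (adjusted p = 0.00130), and Traf6, a ubiquitin ligase of Toll-like receptor signalling, was lower (-0.50, adjusted p = 0.00294). On stimulation 12 of the 21 were higher and 5 lower in wildtype, and 14 and 2 in cKO, while library totals gave 9 and 9 in wildtype and 11 and 8 in cKO.

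Of the 14 tested partners and cofactors, 2 were higher and 1 lower in cKO M1, and edgeR called 0 in M0 (2 lower at an unadjusted p under 0.05, 1 lower by DESeq2, 0 by limma-voom). Irf2bp2, a corepressor that binds IRF2, was at 316 ± 65.0 CPM in wildtype M1 and 156 ± 32.7 in cKO M1 (log2 difference -1.02, SE 0.14, adjusted p = 0.000229). Ikzf1, a lymphoid and myeloid zinc-finger factor, was higher by 0.63 (adjusted p = 0.00129) and Etv6, an ETS-family repressor, by 0.37 (adjusted p = 0.00297). Of the 12 inhibitors, 3 were higher and 2 lower in cKO M1 (8.98% and 9.67% of all tested genes). Socs1, which blocks JAK kinases, was at 125 ± 41.1 CPM in wildtype M1 and 296 ± 41.0 in cKO M1 (1.24, adjusted p = 0.000927), and Tollip, an inhibitor of interleukin-1 and Toll-like receptor signalling, was at 233 ± 17.9 and 158 ± 19.0 CPM (-0.56, adjusted p = 0.000498). Optn, an adaptor that binds ubiquitin and TBK1, was at 58.7 ± 13.4 CPM in wildtype M1 and 24.1 ± 2.51 in cKO M1 (-1.28, adjusted p = 3.89e-05), and Ptpn6, the phosphatase SHP-1, was higher by 0.44 (adjusted p = 0.00303). Of the 10 tested interferon, receptor, JAK and STAT genes, Ifngr1 was higher (0.28, adjusted p = 0.0210, lost without wildtype M1 replicate 11 or 12 or cKO M1 replicate 8 or 9, with adjusted p up to 0.134, without the low-count filter, 0.0605, and with only the groups compared, 0.0759) and Jak1 lower (-0.42, adjusted p = 0.00313) in cKO M1.

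Among reported targets, all 16 tested genes of the IRF3, IRF7 and IRF9 list rose on stimulation in both genotypes (15 in cKO with library totals), where 34.2% of all tested genes were called higher in each, with a median log2 difference of 3.45 in wildtype and 3.09 in cKO, and cKO M1 had 1 higher (Cxcl10, 1.45) and 1 lower (Oas2, -0.48, lost without wildtype M1 replicate 11 or cKO M1 replicate 7, with adjusted p of 0.0570 and 0.0555). Of 16 tested targets of IRF1, IRF5 and IRF8, 15 rose in wildtype and 16 in cKO, and cKO M1 had 4 higher and 3 lower (8.98% and 9.67% of all tested genes). In cKO M0 the list had 1 higher and 1 lower gene (0.662% and 0.953% of all tested genes). Ciita, the regulator of MHC class II genes, was at 43.2 ± 8.67 CPM in wildtype M0 and 19.9 ± 2.38 in cKO M0 (-1.12, adjusted p = 0.00497, and 0.0601 without cKO M0 replicate 3). Tnf was higher by 0.52 (adjusted p = 0.0381), a call lost without wildtype M0 replicate 4 or 6, cKO M0 replicate 2 or 3, wildtype M1 replicate 10 or cKO M1 replicate 8 (adjusted p up to 0.257). In M1 the 4 with the smallest p were split in direction: Il12b, the subunit that IL-12 and IL-23 share, was lower (-1.77, adjusted p = 0.000425), while Tnf, Il6 and Ido1 were higher by 0.60, 1.35 and 0.83. Of 8 tested IRF4 targets and genes of alternative activation, 4 were called higher and 2 lower on stimulation in wildtype (34.2% and 37.1% of all tested genes). In cKO 5 were higher and 2 lower (34.2% and 36%). Their median log2 difference was 1.71 in wildtype and 1.42 in cKO, while Irf4 itself fell in both. In cKO M0, 0 of the 8 were higher and 2 lower. These were Prdm1, a transcriptional repressor, at 16.5 ± 1.87 and 10.8 ± 0.844 CPM (-0.61, adjusted p = 0.0223), and Kdm6b, a histone demethylase (-0.69, adjusted p = 0.0463). The Prdm1 call was lost without wildtype M0 replicate 4 or 6 or cKO M0 replicate 2 or 3 (adjusted p up to 0.182). The Kdm6b call was lost in 9 of the 12 fits that left out 1 library (all but those without cKO M0 replicate 1, cKO M1 replicate 7 or cKO M1 replicate 9, with adjusted p up to 0.257) with library totals (adjusted p = 0.0507), with halved counts (0.0555) and with limma-voom (0.0932). In M1, Mrc1, the mannose receptor, was lower (-1.03, adjusted p = 0.000816) and Arg1, which splits arginine, higher by 0.84 (adjusted p = 0.0238, 0.0777 or 0.0765 without cKO M1 replicate 7 or 8, 0.120 with DESeq2 and 0.0510 with only the groups compared).

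The genes whose log2 CPM followed each member most closely were searched among 9218 genes over the 12 libraries. These libraries share 2 states that are far apart, so high values of Pearson's r are common, and the values are a description. For Irf1 they were Ccdc71l and Acod1, both with r of 0.999. For Irf7 they were Irgm1 and Ifi204, both with r of 0.998. For Irf5 they were Tapbp and Usb1 (0.998), for Irf8 Lacc1 (0.998) and Icam1 (0.997), and for Irf4, in the downward direction on stimulation, Deptor (0.998) and Plscr4 (0.997). Lower values were found for Irf2 with Nod2 (0.989) and Plod3 (0.988), for Irf3 with Exo5 (0.970) and Dmac1 (0.956), and for Irf9 with Trib3 (0.992) and Tapt1 (0.991). After the mean of the M0 and of the M1 libraries was taken out, Irf7 was still followed by Ifi204 (0.948) and Irgm1 (0.943), Irf2 by Lrrc14 (0.984) and Fam222b (0.983), and Irf3 by Ido1 and Slc39a1 (both 0.966). Irf8 was then followed by Pheta1 (0.926) and Zmynd15 (0.921), and Irf9 by Uhrf2 (0.923) and Foxk2 (0.902). Irf1 was followed by Slc25a45 (0.925) and Dnajc14 (0.917), Irf4 by Aldh7a1 (0.919) and Pot1b (0.910), and Irf5 by Preb (0.905) and Ap2m1 (0.843).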

How the data were processed

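The authors deposited raw read counts per gene for 12 libraries, with a gene length column. Per the submitters' processing notes, the tools were featureCounts 2.0.3, HISAT2 2.2.1, SAMtools 1.16.1 and Trimmomatic 0.39, and the build was GRCm39. Not given in the sources used here were the strand setting, the handling of multi-mapped reads and the version of the annotation. Of the values from 1 to 10, 60.9% were even, so read pairs may have been counted by mate, and a fit on halved counts was run as an alternative. Of 56980 identifiers, 52073 had a symbol in the table of gene names.

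Counts were analysed in R 4.3.3 with edgeR 4.0.16. Genes were kept by filterByExpr (at least 10 counts, and 15 in total), which left 15110. TMM factors averaged 1.21 and 1.22 in wildtype and cKO M0 and 0.808 and 0.84 in wildtype and cKO M1. All 12 libraries entered one fit with a mean per group, and each comparison used the quasi-likelihood F-test with Benjamini-Hochberg adjustment over all tested genes, called at 0.05. Common biological variation was 0.111. The test was checked on simulated counts in which a set of genes was changed in cKO M1 alone and M0 and M1 did not otherwise differ. That check therefore does not address the scaling between M0 and M1. Alternatives were DESeq2 size factors, library totals, no low-count filter, DESeq2 1.42.0, limma-voom (limma 3.58.1), halved counts, a fit of only the groups compared, and each library left out in turn.

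The 8 members, the 7 pathway lists and the 8 marker lists were chosen with earlier results of these data known. All members are named, as are up to 4 called genes per pathway list and comparison with the smallest p (or 2 where none passed), and for each member the 2 genes most correlated with it (pseudocount 0.5 CPM, mean of at least 5 CPM). Promoter windows and neighbouring genes came from tables on GRCm38, which is not the build of the counts and was used for sequences, names and order only. Other marker lists, for T and NK cells, neutrophils, erythroid, mast and basophil, and stromal cells, were at most 16.2 CPM in sum in any library.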

Additional observations from a re-analysis of the deposited data

Results flagged for a closer look

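The effect of the cKO differed between M0 and M1, by the interaction term of the edgeR quasi-likelihood fit (adjusted p under 0.05), for 2 members. The term was 0.53 on the log2 scale for Irf2 and 0.59 for Irf3, with both differences larger in M1 than in M0, and each call was lost without certain single libraries, as given above. For Zc3h12c, the targeted gene, the term was -0.61.

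Of 96 tested genes of the pathway lists the term was called higher for 9 and lower for 4, where 4.02% and 4.14% of all tested genes were. It was positive for Ikbke (0.62), Sting1 (0.39), Myd88 (0.51), Etv6 (0.45), Ikzf1 (0.63), Irf2bp1 (0.46), Socs3 (0.67), Ptpn6 (0.47) and Prdm1 (0.86). It was negative for Irf2bp2 (-0.79), Optn (-1.07), Klf4 (-0.73) and Mrc1 (-0.82). The calls of Ikbke, Optn, Socs3, Klf4 and Prdm1 held without any 1 library, while those of the others were lost in some of the 12 fits that left out 1 library. These were 3 fits for Etv6 (adjusted p up to 0.0613), 4 for Irf2bp2 (0.0771), 5 for Ikzf1 (0.0693), 6 for Ptpn6 (0.0880), 7 for Sting1 (0.120), 8 for Mrc1 (0.110), 9 for Myd88 (0.115) and 9 for Irf2bp1 (0.0979). Without the low-count filter the calls of Irf2bp1 (0.0844) and Sting1 (0.116) were lost, and with DESeq2 size factors that of Myd88 (0.0559). The lists were chosen with earlier results of these data known.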

How the results depend on the processing

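No paired analysis was possible because the labels number the libraries from 1 to 12 across groups, so that no number is shared between them. Of 752 log2 differences of members under 19 alternatives, 694 kept their direction and side of the threshold, 14 lost the call, 11 gained it and 33 changed sign.

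The Irf2 difference in M0 was 0.0018 as reported and turned to -0.0050 with DESeq2 size factors, -0.0050 with DESeq2, -0.0050 with limma-voom, -0.0021 with halved counts and -0.0043 with only the groups compared. With library totals the Irf5 difference in M1 was 0.031 and its interaction term 0.041, and the responses were -0.043 for Irf2 in wildtype and -0.51 for Irf3 and -0.026 for Irf9 in cKO, which made 2 members lower in cKO instead of 1. Without the low-count filter the Irf3 response in cKO was -0.015, 1 member (Irf7) was higher in M0 and 1 member (Irf7) lower in the interaction term. The cause of these changes was not tested.

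Leaving out each library in turn gave 0 to 1 members higher in M0, 2 to 3 in M1, and 0 to 2 higher and 0 to 1 lower in the interaction term. Over these fits the differences in M0 ran from -0.077 to 0.091 for Irf2 and from -0.055 to 0.054 for Irf5. In M1 they ran from -0.56 to 0.27 for Irf4 and from -0.069 to 0.025 for Irf5. The Irf3 response in cKO ran from -0.067 to 0.10, and the interaction term from -0.15 to 0.68 for Irf4 and from -0.077 to 0.050 for Irf5.

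Over all genes, 244 were called in M0, against 1182 without the filter, 874 with DESeq2, 491 with limma-voom and 394 with only the groups compared. Leaving out 1 library gave from 1 (without cKO M0 replicate 3) to 452 calls in M0 (without cKO M1 replicate 7). There were 4 without wildtype M0 replicate 6 and 12 without wildtype M0 replicate 4, so the number called in M0 depends strongly on single libraries. For the interaction term 1233 were called, against 1972 without the filter and 1884 with DESeq2. Leaving out 1 library gave from 565 (without cKO M1 replicate 8) to 1576 (without wildtype M1 replicate 12). The share of calls that were higher was 41% in M0 and 60% without the filter, 51% with only the groups compared. It was 48.2% in M1 against 61.5% with library totals, 48% against 23.5% for the wildtype response, 48.7% against 24.2% for the cKO response, and 49.3% against 60.5% for the interaction term.

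With 3 libraries a group, a difference that missed the threshold is bounded only by its interval, and the 4 to 18 counts of Irf4 in M1 gave an interval from -0.99 to 0.72.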
